A study of Mus musculus with 42 samples.

Results

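To ask what blockade of IL2RB still removes from a tumor when GM-CSF is already blocked, 11 tumors treated with aPD1 + aGM-CSF + aIL2RB were compared with 9 tumors treated with aPD1 + aGM-CSF. The tumors were chosen by their labelled treatment (aPD1 + aGMCSF + aIL2RB and aPD1 + aGMCSF) and are 20 of the 42 in the experiment. All were MC38 tumors, a transplanted colon carcinoma line, grown under the skin of female CC75×B6 mice (CC075/UncJ x C57BL/6J F1) aged 8 to 12 weeks. Both groups received 100 μg of aGM-CSF every 3 days from engraftment until tumors measured 75 to 110 mm3. Both then received a single dose of 200 μg of aPD1, and tumors were taken 48 h later. The groups differed by 200 μg of aIL2RB given on the same schedule. According to the sample protocols, mice without a blocking antibody received its isotype control. A bulk profile of each whole tumor was made from poly(A) RNA, so fewer cells of a type and less RNA per cell cannot be told apart. For comparison, 11 tumors were given aPD1 + aIL2RB, 6 aPD1 and 5 isotype control.

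IL2RB is the β subunit shared by the receptors for IL-2 and IL-15, and with the common γ chain (IL2RG) it signals mainly through JAK1, JAK3 and STAT5. IL-15 maintains natural killer (NK) cells and other innate-like lymphocytes, while IL-2 and IL-15 both act on activated CD8 T cells, and IL-2 on regulatory T cells, which carry the α subunit IL2RA. Cish encodes a feedback inhibitor of these receptors that STAT5 induces. GM-CSF acts on myeloid cells through a separate receptor of CSF2RA and CSF2RB.

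The data are expected counts per gene, with totals of 16592338 to 22673085 in aPD1 + aGM-CSF tumors and 7155486 to 22781418 in aPD1 + aGM-CSF + aIL2RB tumors, where the lowest total was that of replicate 4. Levels are given as CPM (counts scaled to a common library total after TMM normalization), and differences as log2 fold changes of aPD1 + aGM-CSF + aIL2RB against aPD1 + aGM-CSF tested with edgeR (quasi-likelihood) and p adjusted over 16932 genes. Tumors also part along their replicate numbers into a first set (aPD1 + aGM-CSF replicates 1 to 5, aPD1 + aGM-CSF + aIL2RB replicates 1 to 6) and a second set (4 and 5 tumors), a division that neither the labels nor the study's text names. Apart from treatment, the second set had 2309 genes at a higher and 1943 at a lower level than the first. The division was chosen with earlier results of these data known, so these counts are no separate evidence for it. Values within each set are given for lists and for some of the genes. Among genes that passed over both sets and are named below without such values, Xcl1, Bcl2, Cd163, Slfn4 and Ccl5 passed in neither set alone. The same held for Enpp2, Gimap1, Il12rb1, Hk2, Pdk1, Pgam1, Vegfa, Msmo1, Fdft1 and Sc5d. The markers of muscle, fat, skin and red cells gave no gene past the threshold over both sets (14, 10, 4 and 4 genes tested). In the second set 2 of the 4 red cell genes rose (median 2.16, beside -0.98 and no call in the first), and summed red cell genes reached 960 CPM in 1 aPD1 + aGM-CSF + aIL2RB tumor against at most 90.5 CPM with aPD1 + aGM-CSF.

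At an adjusted p under 0.05, 194 genes fell (1.15% of those tested) and 166 rose (0.98%) when aIL2RB was added. Of the lower genes 47 changed by more than 1 on the log2 scale, and of the higher genes 18. The largest falls with a mean log2 CPM of at least 1 were in granzyme genes (Gzma, Gzmg, Gzmc, Gzmf and Gzmd) and in Ctsw, Cish and Il2rb. Ikzf3 and Gimap3, which encode a transcription factor and a GTPase of lymphocytes, were also among them. The largest rises at that level were in Saa3, Slfn4, Cd163, Enpp2, Ephb3, Folr2, Epha3, Ogn, Fam198b and Per1. In the plot of fold change against p, Zfp683, Klra7, Gzma and Ncr1 lie farthest to the left. All 194 lower and 166 higher genes had the same sign in both sets and passed with the set as a term in the model, which called 372 genes lower (2.2%) and 385 higher (2.27%). The size of the comparison depended on single tumors. The total of 360 genes was 728 without aPD1 + aGM-CSF + aIL2RB replicate 1, and 219, 206, 218 and 236 without replicates 6, 8, 9 and 11 of that group. It was 231, 228, 177, 198 and 217 without replicates 2, 3, 6, 7 and 8 of aPD1 + aGM-CSF.

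**Figure D1:**
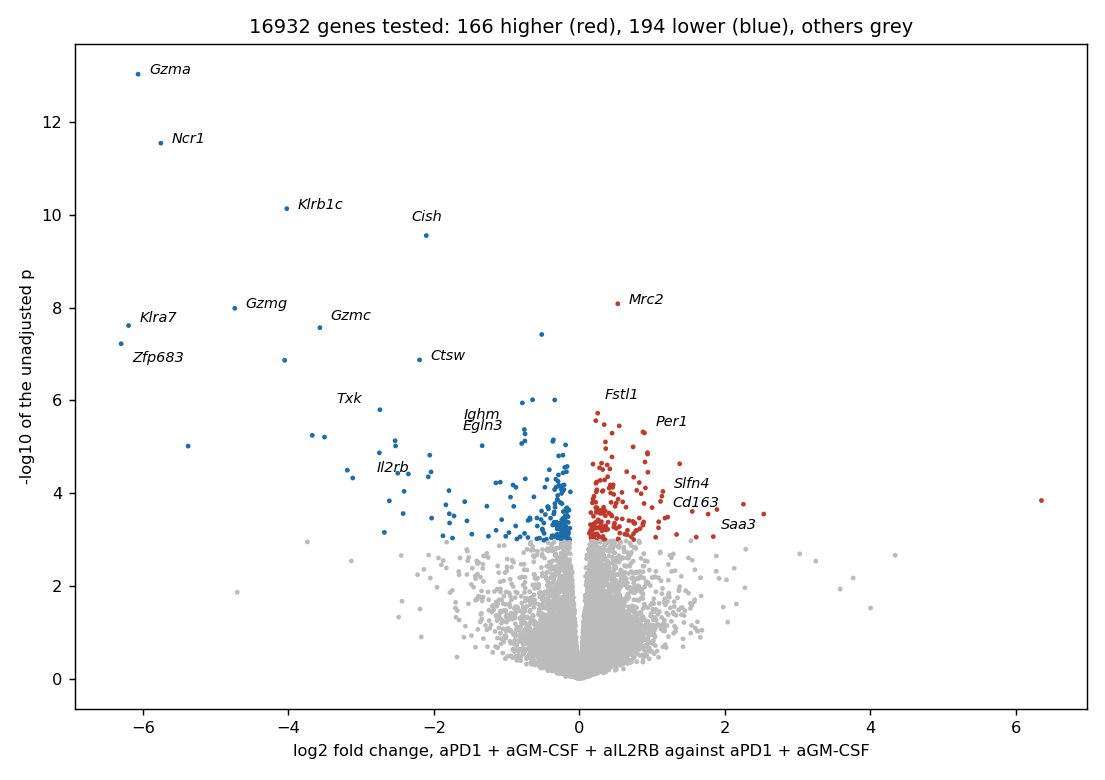
Log2 fold change of aPD1 + aGM-CSF + aIL2RB (n = 11) against aPD1 + aGM-CSF (n = 9) on the x axis and −log10 of the unadjusted p of edgeR's quasi-likelihood test on the y axis, with 1 point per gene tested. Colored points are the 166 higher and 194 lower genes at an adjusted p under 0.05, and Gzma, Ncr1 and Klrb1c are the lower genes with the smallest p.

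Ncr1, Klrb1c and Klra7, which mark NK cells, were at or close to 0 once aIL2RB was added, in both sets. Values of Eomes, a further gene chosen as an NK cell marker, are not given here. Ncr1 (ENSMUSG00000062524, chromosome 7 of GRCm38 from 4337724 to 4345164), which encodes the NK receptor NKp46, ranged from 0.486 to 1.42 CPM with a median of 0.806 in aPD1 + aGM-CSF tumors. With aIL2RB it was at 0 in 10 of 11 tumors and at 0.105 CPM in the other. A total of 146 counts stood against 2, a ratio of 88.5 with a 95% interval of 24.1 to 738 for counting error only (exact binomial, adjusted p = 2.42e-08 by edgeR). Ncr1 had medians of 1.32 CPM in isotype and 1.23 CPM in aPD1 tumors, and was at 0 in all 11 aPD1 + aIL2RB tumors. Klrb1c (the NK1.1 antigen) ranged from 1.10 to 2.83 CPM and, with aIL2RB, from 0 to 0.367 CPM, without overlap (log2 fold change -4.02, SE 0.47, adjusted p = 4.16e-07). Klra7, an inhibitory Ly49 receptor gene, had 77 counts over 9 tumors and 0 counts over 11, at least 31.1-fold lower when 3 counts over the group are taken as the floor. Its relative Klra8 fell by 3.11 (SE 0.69, adjusted p = 0.0115). In 20 of the 42 tumors a count of Klra7 or Klra8 was not whole, because shared reads were divided. In the 2 groups compared here this held for Klra8 and not for Klra7, and the value of Klra8 is uncertain to that extent. Some counts of Klrb1c were not whole either, such as 34.4 in aPD1 + aGM-CSF replicate 1.

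Of 23 genes for NK receptors and T-box factors, 21 were below 0 and 2 above. Their median log2 fold change was -1.01, beside 0.0087 over all genes tested. It was -0.61 in the first set, where 3 fell, and -3.81 in the second, where 18 fell. Over both sets 10 genes of the list fell and none rose. Apart from those named, these were Txk, a kinase of T and NK cells (1.36 to 2.26 CPM against 0 to 1.05 CPM, without overlap), Klre1, Klri2 and Klrd1, which encode lectin-like receptors, the chemokine gene Xcl1 (log2 fold change -2.35, SE 0.51, adjusted p = 0.0101) and Tbx21, which encodes T-bet (log2 fold change -1.74, adjusted p = 0.0476). The call of Tbx21 held in 3 of the 20 fits that left out 1 tumor. Zfp683, which encodes the residency factor Hobit and lies below the level set for naming genes, was chosen after its values were seen. It was between 0.107 and 1.05 CPM in all aPD1 + aGM-CSF tumors and at 0 in all 11 tumors with aIL2RB (83 counts against 0, at least 33.5-fold lower with the same floor). Tcrg-C2, a constant segment of the γδ T cell receptor also named after its values were seen, fell by 3.67 (SE 0.71, adjusted p = 0.00371).

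**Figure D2:**
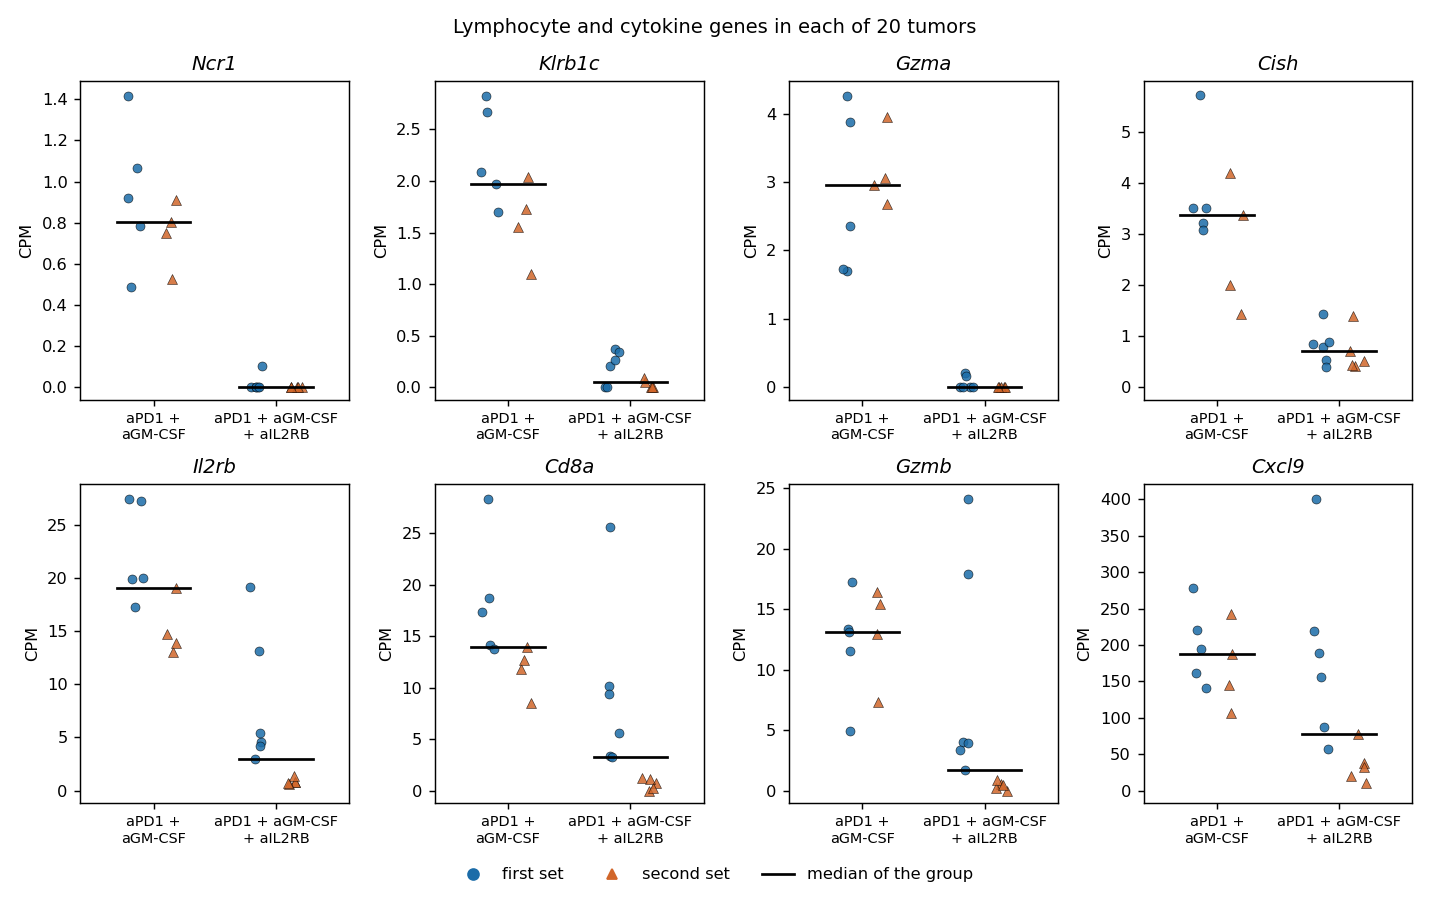
CPM of 8 genes in each tumor of both groups, with circles for the first and triangles for the second set and a line at the median of the group. Ncr1, Klrb1c and Gzma do not overlap between the groups in either set, whereas Cd8a, Gzmb and Cxcl9 stay high in some tumors of the first set given aIL2RB.

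Genes for cytotoxic granules and killing divided into some that fell in both sets and some that did not. Gzma (chromosome 13, 113093825 to 113100981), which encodes granzyme A, ranged from 1.70 to 4.26 CPM with a median of 2.95. With aIL2RB it was at 0 in 9 of 11 tumors and at most at 0.21 CPM, without overlap (log2 fold change -6.07, SE 0.56, adjusted p = 1.58e-09). In isotype and aPD1 tumors its medians were 4.90 and 8.20 CPM. Gzmc, a granzyme gene with close relatives beside it, ranged from 1.85 to 21 CPM and with aIL2RB from 0 to 2.90 CPM (log2 fold change -3.57, SE 0.52, adjusted p = 5.76e-05), where 9 of 11 tumors were below every tumor without aIL2RB. Gzmg (-4.74, adjusted p = 2.93e-05), Gzmf (-2.61, adjusted p = 0.0201) and Gzmd (-2.42, adjusted p = 0.0276) fell as well, but the calls of Gzmf and Gzmd rest on the second set (first set adjusted p = 0.511 and 0.548). Without aPD1 + aGM-CSF replicate 7 or 9 Gzmd did not pass, at most at 0.0629. Summed over Gzmc to Gzmg, the groups overlapped in the first set, at 4.68 to 43.67 CPM without and 6.17 to 13.25 CPM with aIL2RB. In the second set the sums were at 24.02 to 70.8 CPM without and 0 to 0.31 CPM with aIL2RB. Ctsw, the protease cathepsin W, fell by 2.20 (SE 0.35, adjusted p = 0.000194) and was lower in 10 of 11 tumors than in any tumor without aIL2RB. Of 14 genes for granules and killing 6 fell and none rose, all 14 were below 0 and their median was -1.73. By set, 3 fell in the first (median -0.90) and 12 in the second (-5.72). Without aPD1 + aGM-CSF + aIL2RB replicate 1, 10 fell.

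Gzmb and Prf1, which encode granzyme B and perforin, did not pass. Gzmb ranged from 4.93 to 17.2 CPM with a median of 13.1, and with aIL2RB from 0 to 24.1 CPM with a median of 1.73 (log2 fold change -1.36, SE 0.55, adjusted p = 0.183). The 5 tumors of the second set were between 0 and 0.883 CPM. In the first set, replicates 1 and 4 were at 24.1 and 17.9 CPM, above every tumor without aIL2RB. In the second set Gzmb fell by 4.95 (adjusted p = 0.000168) and in the first its change was -0.46 (adjusted p = 0.785), and this difference between the sets passed the test (adjusted p = 0.0277). Prf1 showed the same division, with -4.43 in the second set, -0.11 in the first and an adjusted p of 0.0277 for the difference. Without single tumors the difference passed in 13 of 20 fits for Gzmb and in 12 for Prf1, with adjusted p of up to 0.0783 for both.

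The receptor that aIL2RB binds and the feedback gene Cish were both lower at the RNA level. Il2rb (chromosome 15, 78479256 to 78495271) ranged from 13 to 27.5 CPM with a median of 19.1, and with aIL2RB from 0.623 to 19.2 CPM with a median of 2.99 (log2 fold change -2.04, SE 0.44, adjusted p = 0.00971). Of 11 tumors 9 were below every tumor without aIL2RB, and replicates 1 (19.2 CPM) and 4 (13.2 CPM) were not. Il2rb had a log2 fold change of -4.11 in the second set (adjusted p = 2.29e-05) and of -1.49 in the first (adjusted p = 0.0781), and the difference between the sets did not pass (adjusted p = 0.0674). Cish (chromosome 9, 107296026 to 107302784) ranged from 1.44 to 5.73 CPM with a median of 3.37, and with aIL2RB from 0.392 to 1.44 CPM with a median of 0.719. Its groups touched at 1 tumor each, and the other 10 tumors with aIL2RB were below the lowest without it (log2 fold change -2.10, SE 0.26, adjusted p = 1.19e-06). The fall of Cish was -2.18 in the first set and -1.96 in the second. In replicates 1 and 4, where Il2rb was in the range of the other group, Cish was at 0.786 and 0.527 CPM.

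Of 15 genes for IL-2 and IL-15 receptors and signaling, Cish, Il2rb and the survival gene Bcl2 fell (Bcl2 -0.32, SE 0.073, adjusted p = 0.0139) and none rose, with a median of -0.15. By set, 1 fell in the first and 6 in the second. Without aPD1 + aGM-CSF + aIL2RB replicate 1, 5 fell. Il2ra (-0.47, SE 0.33, adjusted p = 0.467) and Il2rg (-0.41, SE 0.19, adjusted p = 0.251) did not pass, and Il2rg was at 41.4 to 59.7 CPM without and 19.2 to 89.4 CPM with aIL2RB. The 4 genes tested for the GM-CSF receptor, whose ligand was blocked in both groups, gave no call over both sets (median -0.18) or in the first (0.15), whereas 3 fell in the second (-0.80). Csf2rb, whose reads were divided with its copy Csf2rb2, was at a median of 37.9 CPM without and 37.1 CPM with aIL2RB (log2 fold change -0.25, SE 0.17, adjusted p = 0.466).

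The letters around the start of Cish are shown because STAT5 binds sites of the form TTCNNNGAA, a palindrome read alike on both strands. In the RefSeq promoter table (GRCm38.p6, 250 bases before to 50 after the start), Cish holds 2 such matches, in capitals, between 107296656 and 107296681 of the plus strand of chromosome 9.
Cish: gttTTCCTGGAAagTTCTTGGAAatc
The 3 bases before the RefSeq start come first, and this start lies inside the gene interval given above for Cish. Of 16930 gene symbols tested 11465 matched the table, and 8.38% of their promoters hold TTCNNNGAA, beside 12.8% of 141 matched lower genes and 8.0% of 125 matched higher genes. A match is a run of letters and no evidence of binding.

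The number of T cell receptor genes that fell depended on single tumors. Of 27 genes for the T cell receptor and its coreceptors, 4 fell (Cd8b1, Zap70, Lck and Skap1) and none rose, with a median of -1.25. None fell in the first set (median -0.81) and 21 in the second (-3.02), and 10 fell with the set as a term. The number was 1 without aPD1 + aGM-CSF replicate 4 and 19 without aPD1 + aGM-CSF + aIL2RB replicate 1. Lck, the kinase that starts T cell receptor signaling, ranged from 4.86 to 9.68 CPM and with aIL2RB from 0.103 to 10.6 CPM, with 10 of 11 tumors below every tumor of the other group (log2 fold change -1.58, SE 0.38, adjusted p = 0.0206). Cd8a, which marks cytotoxic T cells, ranged from 8.51 to 28.3 CPM with a median of 14, and with aIL2RB from 0 to 25.6 CPM with a median of 3.25 (log2 fold change -1.52, SE 0.47, adjusted p = 0.0729). In the second set Cd8a was at 8.51 to 14 CPM without and at 0 to 1.2 CPM with aIL2RB, without overlap. In the first set it was at 13.7 to 28.3 CPM without and at 3.25 to 25.6 CPM with aIL2RB. Its change of -4.16 in the second set (adjusted p = 2.66e-05) and -0.96 in the first (adjusted p = 0.319) differed (adjusted p = 0.0316), and this held in 9 of 20 fits without 1 tumor. The fitted value for Cd3e was -1.40 on the log2 scale (SE 0.45, adjusted p = 0.0839) and 10 of 11 tumors were below the lowest without aIL2RB. The exception was replicate 1, at 8.02 CPM. Cd4 (0.0041, SE 0.41, adjusted p = 0.997) and Foxp3, the factor of regulatory T cells (-0.44, SE 0.35, adjusted p = 0.531), did not pass.

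Around the T cells, 2 of 15 checkpoint and costimulation genes fell (Tnfrsf9, which encodes 4-1BB, and Tox), while all 15 were below 0 with a median of -0.64. Of these genes 12 fell in the second set, none in the first and 5 with the set as a term. None fell in 10 of the 20 fits without 1 tumor, and 7 fell without aPD1 + aGM-CSF + aIL2RB replicate 1. Among 8 GIMAP genes, GTPases of lymphocytes, 3 fell (Gimap3, Gimap7 and Gimap1), none in the first and 2 genes in the second set. None of 8 regulatory T cell genes passed over both sets and 1 fell in the second, those with the smallest p being Tnfrsf18 (-0.54, adjusted p = 0.182) and Ccr8 (-1.42, adjusted p = 0.192). Of 11 B cell genes tested, Ighm alone fell, the heavy chain of IgM. It was at 24.4 to 34.7 CPM without and 11.5 to 23.7 CPM with aIL2RB, without overlap (log2 fold change -0.75, SE 0.14, adjusted p = 0.00359), by -0.70 in the first and -0.80 in the second set. Ighd was next (-1.55, adjusted p = 0.11), and the median of the list was -0.062.

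Across all genes the number of calls differed between the sets. In the first set 38 genes fell (0.224%) and 42 rose (0.248%), and in the second 739 fell (4.36%) and 497 rose (2.94%). Within both sets 17 genes fell, among them Gzma, Ncr1, Klrb1c, Klra7, Zfp683, Ctsw, Gzmc, Cish, Ighm, Egln3, Fdps and Pmvk, and 8 rose, among them Dcn, Mrc2, Fstl1, Pdgfra and Psd3. The difference between the sets itself passed for 120 genes whose fold change was lower in the second set (0.709%) and 19 for which it was higher (0.112%). These included 6 of 14 granule genes, 6 of 11 MHC class II genes and 3 of 27 T cell receptor genes. This total of 139 was between 1 and 305 when single tumors were left out, with 1 gene without aPD1 + aGM-CSF + aIL2RB replicate 8 or aPD1 + aGM-CSF replicate 7. Ptprc, which marks all leukocytes, was at 159 to 229 CPM without and 125 to 368 CPM with aIL2RB in the first set, and at 142 to 203 CPM and 86.8 to 130 CPM in the second. The highest value of 368 CPM was that of replicate 1, whose Cd8a, Cd3e and Cxcl9 were also the highest with aIL2RB, and the part of overall leukocyte content in the division of the T cell genes was not tested.

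**Figure D3:**
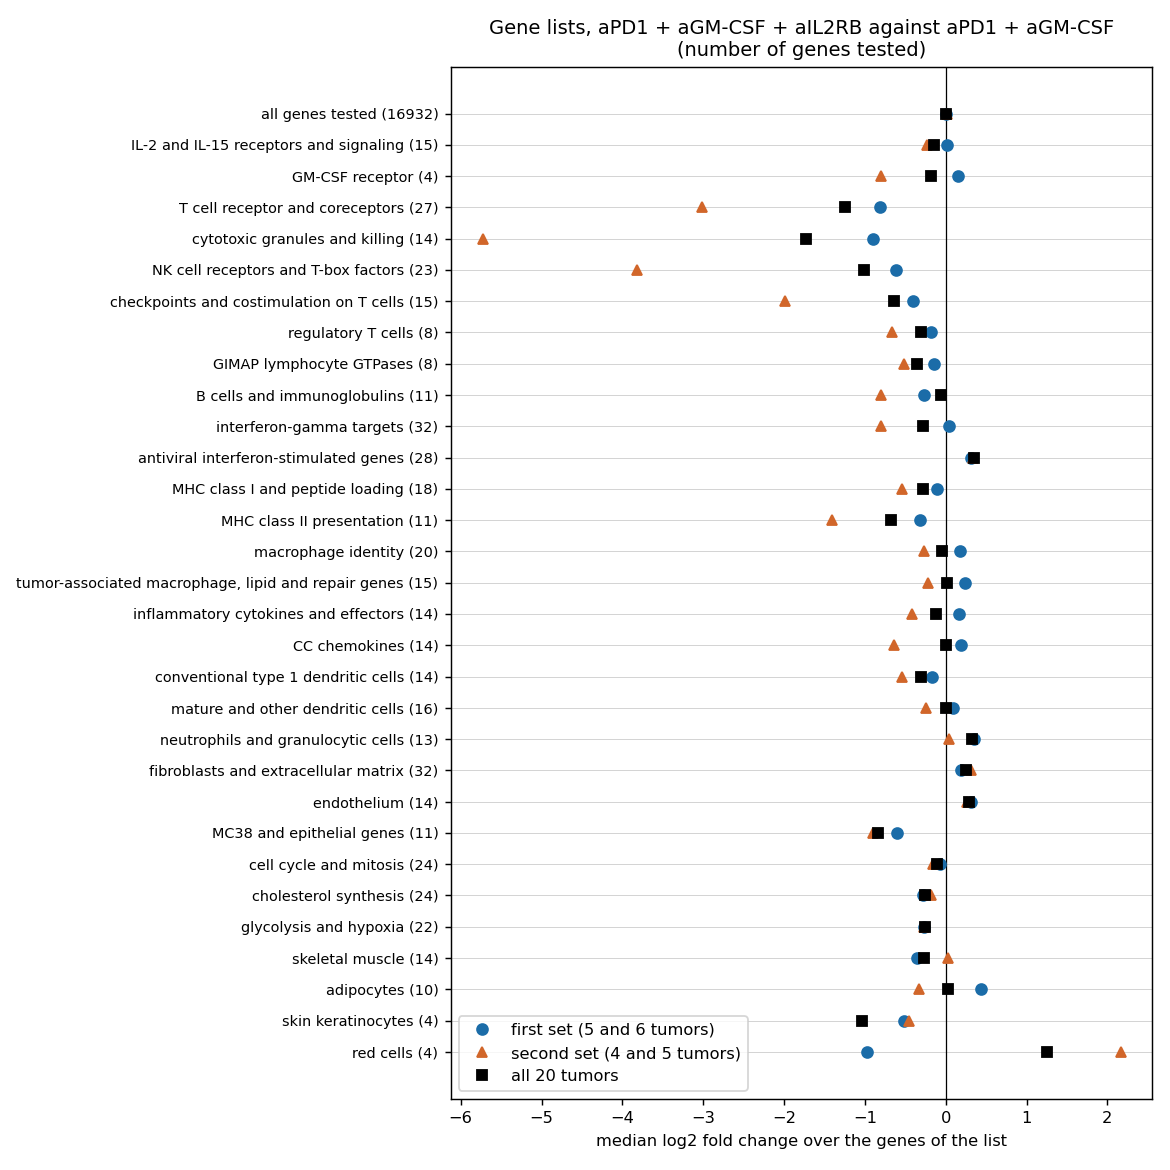
Median log2 fold change of aPD1 + aGM-CSF + aIL2RB against aPD1 + aGM-CSF over the genes of each list, with the number of genes tested, for all 20 tumors (squares), the first set (circles) and the second set (triangles). T cell, granule, NK cell, checkpoint and MHC class II lists lie farther below 0 in the second set, while matrix (0.19 and 0.31), endothelial (0.31 and 0.26), antiviral (0.32 and 0.33), cholesterol (-0.28 and -0.18) and glycolysis lists (-0.27 in both) lie close together.

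Most genes of 2 interferon lists did not pass. Of 32 genes induced mainly by interferon-γ, 30 were below 0 with a median of -0.28, and 1 fell, Il12rb1 (-0.51, SE 0.14, adjusted p = 0.0381), which encodes a subunit of the IL-12 receptor. Il12rb1 passed in 8 of the 20 fits without 1 tumor. The first set gave a median of 0.038 with no call, and the second -0.80 with 9 genes lower. Cxcl9, a chemokine that draws T cells, was at 107 to 279 CPM without and 9.96 to 401 CPM with aIL2RB, and did not pass (-0.68, SE 0.38, adjusted p = 0.361). It fell by 2.25 in the second set (adjusted p = 0.00211) and had a log2 fold change of -0.11 in the first (adjusted p = 0.947). Spp1, a gene of macrophages, was at a median of 223 CPM without and 206 CPM with aIL2RB (0.20, SE 0.19, adjusted p = 0.634). For MHC class I and peptide loading, 3 of 18 genes fell (H2-Q7, Psmb8 and Psme2), of which Psmb8, an immunoproteasome subunit, passed in all 20 fits without 1 tumor (-0.30, SE 0.072, adjusted p = 0.0197). The number was 11 without aPD1 + aGM-CSF + aIL2RB replicate 1 and 1 in 7 other fits. It was 14 in the second set, 0 in the first and 7 with the set as a term. None of 11 MHC class II genes fell over both sets (median -0.68), whereas 3 fell with the set as a term and 8 in the second set. H2-DMa and H2-DMb1 had adjusted p of 0.0542 and 0.0697.

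Genes induced by type I interferon in antiviral defense had medians above 0 in both sets (0.32 and 0.33). Of 28 such genes 4 rose (Ifit1, Ifit3, Ifit3b and Rsad2) and none fell, 2 were below 0, and the median was 0.35. By set, none passed in the first and 8 rose in the second. Ifit3 was at 27.5 to 56.3 CPM with a median of 38 without aIL2RB, and at 46.8 to 126 CPM with a median of 60.1 with it (log2 fold change 0.66, SE 0.18, adjusted p = 0.0451). Of 11 tumors 7 were above every tumor without aIL2RB. Reads of Ifit3 and Ifit3b were divided between these copies, and neither can be read apart from the other. Rsad2, the antiviral enzyme viperin, was at 50.1 to 84 CPM without and 75.1 to 148 CPM with aIL2RB (0.54, SE 0.15, adjusted p = 0.048). These calls were close to the threshold, with no antiviral gene called in 9 of the 20 fits that left out 1 tumor and 6 called with the set as a term.

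The upstream letters are shown for 3 of the antiviral genes that rose over both sets. Capitals mark the core of the element bound by interferon-activated factors, GAAA followed by any 2 bases and GAAA, searched on both strands and here read on the other strand as TTTC, any 2 bases and TTTC.
Ifit1: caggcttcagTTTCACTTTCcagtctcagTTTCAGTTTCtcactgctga
Ifit3: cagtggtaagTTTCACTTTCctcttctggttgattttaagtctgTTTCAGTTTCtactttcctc
Rsad2: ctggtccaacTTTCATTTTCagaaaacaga
In GRCm38.p6 these lie at 34640775 to 34640823 and 34583363 to 34583426 of chromosome 19 (plus strand) and at 26456553 to 26456582 of chromosome 12 (minus strand). Of 20 antiviral genes with a RefSeq promoter 12 hold the element (60.0%), beside 3.94% of the promoters of all genes tested, 7.2% of higher and 5.67% of lower genes. Of 19 matched interferon-γ targets, which did not rise, 63.2% hold it too.

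The same antibody was also given without aGM-CSF, and the tumors of that comparison (aPD1 + aIL2RB against aPD1) are separate from those described so far. There 2449 genes fell (14.5%) and 2198 rose (13%). Markers of other tissue moved in it too: 11 of 14 skeletal muscle genes fell (median -2.52), as did 2 of 10 fat cell genes (median -1.53) and 1 of 4 skin genes, and the leukocyte gene Ptprc fell by 1.29 (SE 0.20). The difference from the effect on top of aGM-CSF passed for none of the muscle genes (median difference 2.48), for 2 fat cell genes and for Ptprc, and the part of these cells in the differences between the 2 effects was not tested. Of the 194 genes that fell on top of aGM-CSF, 165 were below 0 there (85.1%, beside 49.4% of all genes) and 115 fell, which is 59.3% of the former and 4.7% of the latter. Of the 166 higher genes 145 were above 0 (87.3%, beside 50.6% of all genes) and 102 rose, 61.4% and 4.64% of the respective lists. The difference between the 2 effects of aIL2RB was tested for each gene. It was above 0 with aGM-CSF for 895 genes (5.29%) and below 0 for 517 (3.05%), among them 28 of the lower and 25 of the higher genes.

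For Cish the falls were close in both settings. The log2 fold changes of Cish were -2.10 with and -2.03 without aGM-CSF, and those of Gzma -6.07 and -6.83, and neither difference passed (adjusted p = 0.93 and 0.758). With aIL2RB Gzma was at 0 in most tumors of either setting, so its folds depend on the floor and cannot be compared in size. Ncr1 was at 0 in all 11 tumors given aPD1 + aIL2RB, and no fold is given for it there. Over both sets the fall of granule genes was smaller on top of aGM-CSF for 7 of 14, such as Gzmf (-2.61 against -6.10, adjusted p = 0.0198) and Gzmd (-2.42 against -6.02, adjusted p = 0.0147). Cd8a had a log2 fold change of -1.52 against -3.73 (adjusted p = 0.045). By set the values lay on either side: the median of the granule list was -3.74 without aGM-CSF, beside -0.90 on top of it in the first set and -5.72 in the second, and Cd8a gave -0.96 and -4.16 there. The difference from the effect without aGM-CSF was not tested within a set. Of 28 antiviral genes 23 fell without aGM-CSF and none with it, and for 24 the difference passed, above 0. Ifit3 had a log2 fold change of 0.66 with and -0.78 without aGM-CSF (adjusted p = 0.00152). Its median was 97.9 CPM with aPD1 alone and 52.9 CPM once aIL2RB was added to it, beside 36 CPM in isotype tumors and the medians of 38 and 60.1 CPM given above. Of 20 macrophage identity genes, 13 fell without aGM-CSF (median -0.62) and none with it over both sets, and for 12 the difference passed, above 0. With aGM-CSF 6 fell in the second set (median -0.26).

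**Figure D4:**
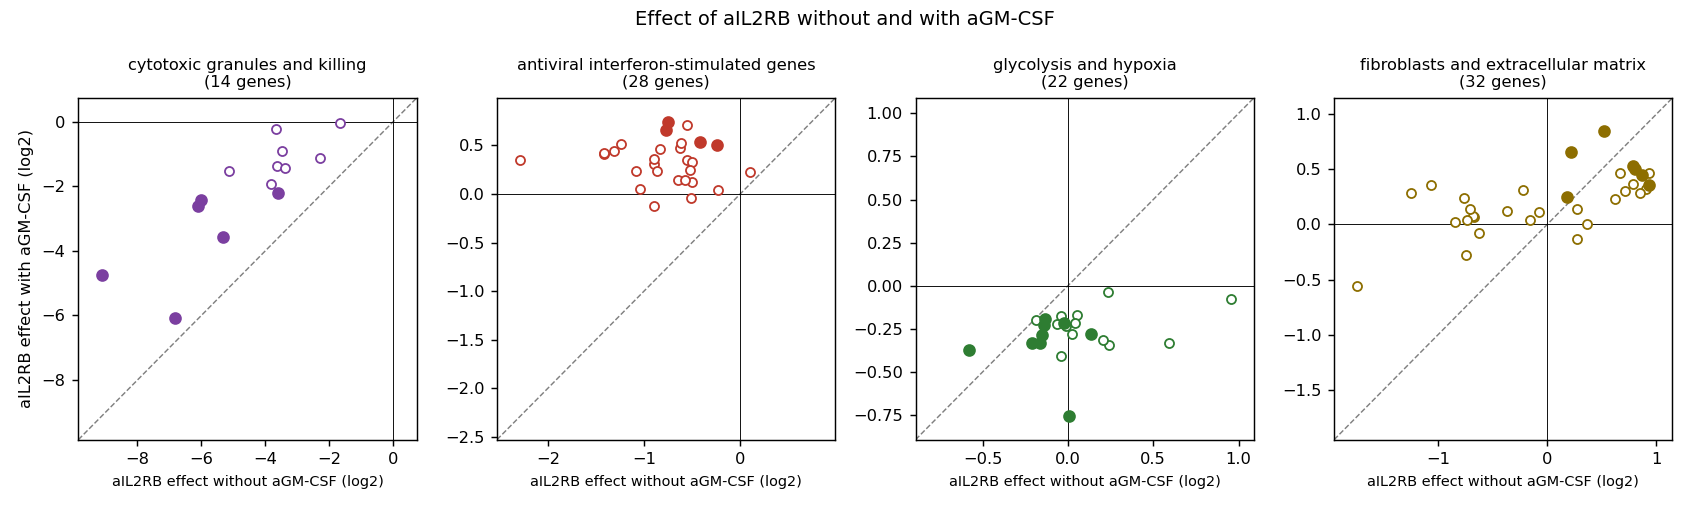
Log2 fold change on adding aIL2RB to aPD1 (x axis) and to aPD1 + aGM-CSF (y axis) for the genes of 4 lists, with filled points for genes past the threshold on top of aGM-CSF, a dashed line of equality and scales that differ between panels. Granule genes lie above the line with values below 0 on both axes, 26 of 28 antiviral genes lie above 0 on the y axis, and all 22 glycolysis genes lie below 0 on it.

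Of 20 macrophage identity genes 2 rose and none fell over both sets (median -0.040), while 3 fell without aPD1 + aGM-CSF + aIL2RB replicate 1. In the first set no gene of the list passed (median 0.18), and in the second 3 rose and 6 fell (-0.26). Cd163, a scavenger receptor of resident-like macrophages, was at 1.96 to 4.50 CPM without and 3.43 to 15.5 CPM with aIL2RB (log2 fold change 1.13, SE 0.27, adjusted p = 0.0171). Folr2, a folate receptor of the same kind of macrophage, was at 1.61 to 4.80 CPM and 3.79 to 8.96 CPM (0.94, SE 0.19, adjusted p = 0.00583). For both, 8 of 11 tumors were above every tumor without aIL2RB. The general macrophage genes Adgre1 (-0.15, SE 0.12, adjusted p = 0.533) and Csf1r (-0.036, SE 0.076, adjusted p = 0.845) did not pass. Of 15 genes of tumor-associated macrophages, lipid handling and repair, Lpl and Vegfa fell, while 1 rose in the first set alone and 4 fell in the second. Lpl, a lipase of lipid-laden macrophages, fell by 0.87 (SE 0.20, adjusted p = 0.0139), and 10 of 11 tumors were below every tumor without aIL2RB. Slfn4, an interferon-responsive gene of myeloid cells, was at 5.61 to 12.1 CPM without and 8.76 to 52.1 CPM with aIL2RB, highest in replicates 1 and 4 (1.15, SE 0.27, adjusted p = 0.0147). It differed from its change without aGM-CSF (-0.81, adjusted p = 0.00216). Saa3, an acute-phase gene, rose by 1.84 (SE 0.51, adjusted p = 0.0461), but this rests on the first set, where all 6 tumors with aIL2RB were at 4.66 to 13.6 CPM. The second set gave 0.623 to 1.35 CPM with aIL2RB, and Saa3 passed in 6 of 20 fits without 1 tumor. Ccl5, a chemokine of T cells, NK cells and macrophages, rose. It was at 28.5 to 41.1 CPM without and 41.2 to 72.6 CPM with aIL2RB, without overlap (0.48, SE 0.13, adjusted p = 0.0342, lost in 7 of 20 fits without 1 tumor).

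Genes that passed without any overlap between the groups were few. Of all genes tested, 9 were lower (0.0532%) and 10 higher (0.0591%) in every tumor with aIL2RB than in any without, and 9 of each passed. The lower ones were Zfp683, Klra7, Gzma, Ncr1, Klrb1c, Txk, Ighm, Fdft1 and Lig1, a DNA ligase of replication. The higher ones were Stx2, Il6st, Fstl1, Zbtb37, Ptgfrn, Dcn, Fn1, Ccl5 and Psd3. Il6st, the signaling chain gp130 shared by cytokines of the IL-6 family, was at 314 to 383 CPM without and 390 to 435 CPM with aIL2RB (0.23, SE 0.042, adjusted p = 0.00259). Zbtb37, Psd3, Ccl5 and Fdft1 passed in 5, 9, 13 and 1 of the 20 fits without 1 tumor.

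Of 32 genes of fibroblasts and extracellular matrix 7 rose (Dcn, Fn1, Fstl1, Mrc2, Pdgfra, Lum and F13a1, the last of which macrophages also express) and none fell, 4 were below 0 and the median was 0.25. By set, 4 rose and none fell in the first, and 10 rose and 2 fell in the second. With the set as a term 11 rose. Without aPD1 + aGM-CSF + aIL2RB replicate 1, 11 rose and 1 fell. Dcn, the matrix proteoglycan decorin, was at 617 to 705 CPM without and 773 to 913 CPM with aIL2RB (log2 fold change 0.36, SE 0.070, adjusted p = 0.00419). Fn1, fibronectin, was at 1468 to 2065 CPM and 2076 to 2872 CPM (0.45, SE 0.092, adjusted p = 0.00615). Mrc2, a collagen receptor of fibroblasts, had the smallest p among higher genes (0.53, SE 0.074, adjusted p = 2.81e-05), and 9 of 11 tumors were above every tumor without aIL2RB. Pdgfra, a receptor that marks fibroblasts, rose by 0.51 (SE 0.12, adjusted p = 0.021). The rises of Dcn, Mrc2, Fstl1 and Pdgfra also passed within both sets. Col1a1, a collagen gene of the same cells, had a log2 fold change of 0.064 and did not pass (adjusted p = 0.9). Among 14 endothelial genes Cdh5, Emcn and Aplnr rose and 1 gene was below 0 (median 0.28), but none passed in either set alone or in 8 of the 20 fits without 1 tumor, and 8 rose without aPD1 + aGM-CSF replicate 5. Summed genes of the fibroblast list were at 11340 to 14393 CPM without and 13795 to 17519 CPM with aIL2RB. CPM are shares of a total, and the part of the other cells in these values was not tested.

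Lists of glycolysis and cholesterol synthesis had medians below 0 in both sets. All 22 genes of glycolysis and hypoxia were below 0 with a median of -0.26, and 9 fell (Egln3, Pfkp, Hk2, Slc16a3, Ldha, Pdk1, Gapdh, Pgam1 and Pkm). Of this list 1 gene fell in the first set and 9 in the second. The number was between 2 and 11 without single tumors, 2 without aPD1 + aGM-CSF + aIL2RB replicate 6 or 8 or without aPD1 + aGM-CSF replicate 3, 6 or 7, and 11 without aPD1 + aGM-CSF replicate 5. Egln3, an oxygen sensor that is itself induced by hypoxia, had the largest fold change of the list. It was at 34.6 to 86.5 CPM with a median of 57 without aIL2RB, and at 24.5 to 43.3 CPM with a median of 31.9 with it (log2 fold change -0.76, SE 0.14, adjusted p = 0.00344). Its change without aGM-CSF was 0.0039, and the difference passed (adjusted p = 0.025). Vegfa, an angiogenic factor induced by hypoxia that stands on the macrophage list, was lower by 0.22 on the log2 scale (SE 0.061, adjusted p = 0.0476) and passed in 5 of 20 fits without 1 tumor. Gapdh fell by 0.23 (SE 0.053, adjusted p = 0.0147) and passed in all 20.

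Of 24 genes of cholesterol metabolism, 22 were below 0 with a median of -0.25, and 7 fell (Fdft1, Stard4, Pmvk, Msmo1, Sc5d and Fdps among them). By set, 4 fell in the first and 3 in the second. With single tumors left out 3 to 6 fell, the fewest without aPD1 + aGM-CSF replicate 6. Fdps, an enzyme of this pathway, was at 129 to 172 CPM without and 87.1 to 132 CPM with aIL2RB, with 10 of 11 tumors below every tumor without it (log2 fold change -0.41, SE 0.089, adjusted p = 0.00935). Fdps and Pmvk passed within both sets and in all 20 fits without 1 tumor. Without aGM-CSF the median of this list was 0.029, with 1 gene lower and 1 higher. Of 24 cell cycle genes 22 were below 0 with a median of -0.10, and Mcm3, Bub1 and Top2a fell by 0.18, 0.17 and 0.15. None passed without aPD1 + aGM-CSF + aIL2RB replicate 6 or aPD1 + aGM-CSF replicate 6, or in either set alone, and all 3 were lost with library size only. Of 11 genes on the list of MC38 and epithelial genes, 9 were below 0 with a median of -0.84. None passed in either set alone, and 1 rose with the set as a term. The 4 skin genes tested were also below 0 (median -1.04, no call), and which cells these values come from was not tested. Over both sets Cdh1 fell (-0.86, SE 0.24, adjusted p = 0.048) and passed in 4 of 20 fits without 1 tumor.

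**Figure D5:**
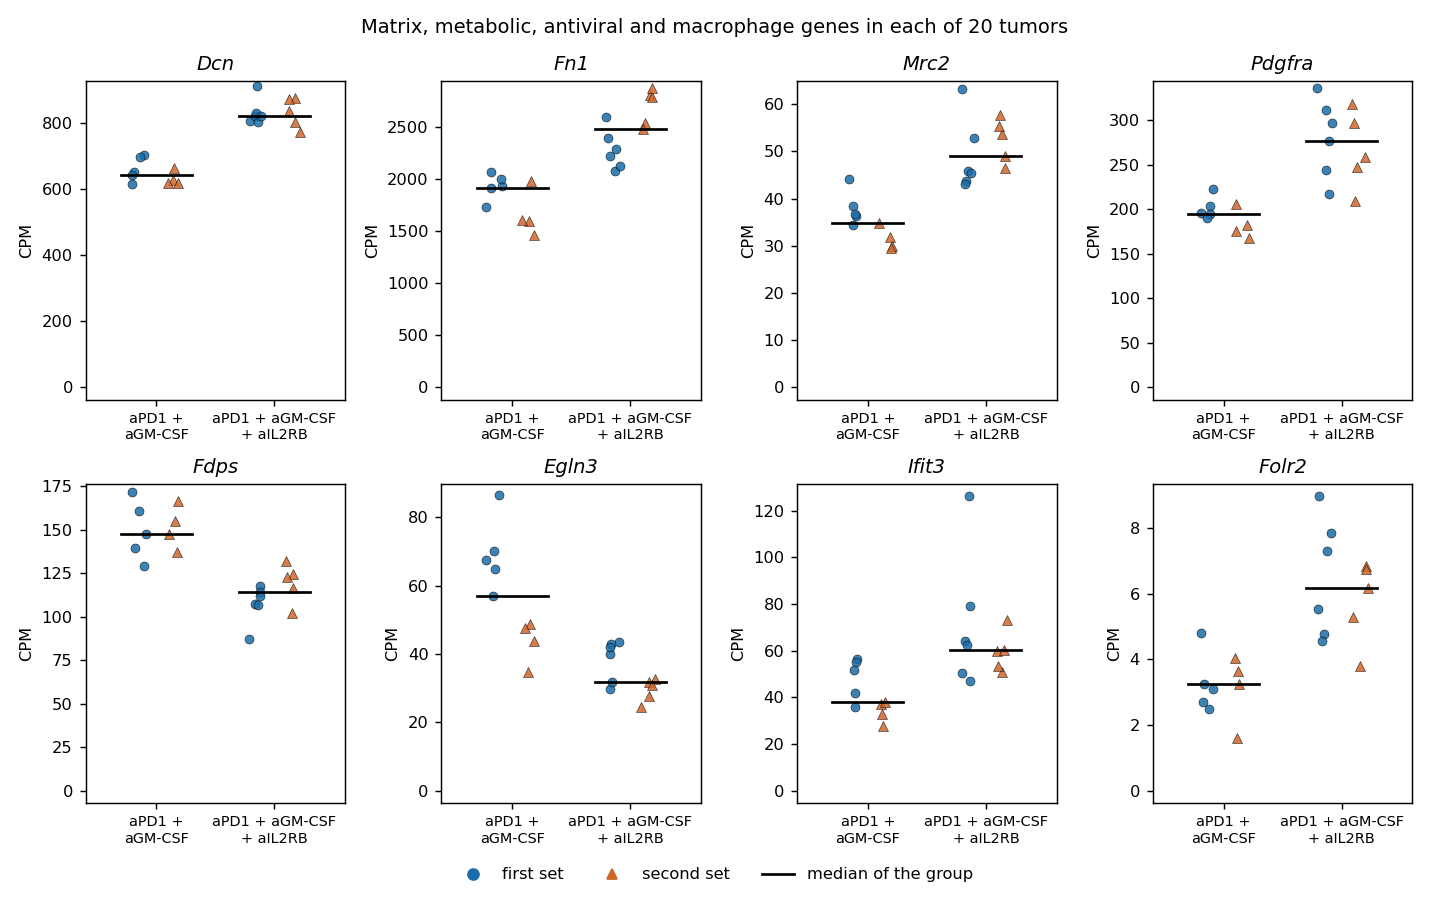
CPM of 8 genes in each tumor of both groups, with circles for the first and triangles for the second set and a line at the median of the group. Dcn and Fn1 are higher in all 11 tumors with aIL2RB than in any without, and Fdps and Egln3 shift downward in both sets with some overlap.

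The circadian gene Per1 was at 26.4 to 38.8 CPM without and 32.1 to 85.2 CPM with aIL2RB, and 10 of 11 tumors were above every tumor without it (log2 fold change 0.89, SE 0.17, adjusted p = 0.00359). Its value of 0.62 in the first set alone did not pass (adjusted p = 0.192). None of 13 neutrophil, 14 type 1 dendritic cell, 16 other dendritic cell or 14 inflammatory cytokine genes passed over both sets or in the first. In the second set 4 type 1 dendritic cell, 1 other dendritic cell and 2 inflammatory cytokine genes fell, and 2 type 1 dendritic cell genes fell with the set as a term and 3 without aPD1 + aGM-CSF + aIL2RB replicate 1. In the fit over both sets Xcr1 (-1.25, adjusted p = 0.0729), Clec9a (-0.19, adjusted p = 0.107), S100a9 (1.58, adjusted p = 0.194), Cxcl5 (2.16, adjusted p = 0.212), Siglech (1.05, adjusted p = 0.104), Ccl22 (-0.94, adjusted p = 0.261), Tnf (-0.43, adjusted p = 0.336) and Il1b (-0.39, adjusted p = 0.454) had the smallest p in their lists.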

How the data were processed

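Poly(A) RNA-seq libraries of whole tumors were aligned by the authors to founder-strain transcriptomes with bowtie (Bowtie 1.2.3 in the submitters' processing notes, builds mm10 and GRCm38), and gbrs gave the expected counts per gene deposited as 1 table. These deposited expected counts are summed over haplotypes and not normalized, and 15.2% of values are not whole because shared reads are divided. Of 26811 Ensembl identifiers, 26629 matched GENCODE M21 (GRCm38), while the authors used M23. Counts were rounded to whole numbers. Genes were kept by filterByExpr (minimum count 10, minimum total 15), normalized by TMM and tested with edgeR 4.0.16 in R 4.3.3, with all 42 tumors in 1 model, a mean for each of 5 groups and Benjamini-Hochberg adjustment over 16932 genes, at a threshold of 0.05. The p-values measure the spread between tumors, 1 mouse each. No tumors of a group were copies (the lowest chi-square over degrees of freedom was 5.42).

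Named genes were Il2rb, Il2ra, Il2rg, Csf2rb, Cxcl9 and Spp1; the 10 largest changes each way among called genes whose log2 CPM averaged 1 or more and whose sign was that of both sets; called genes without overlap at that level; and in 32 lists the called members or, below 2, those of smallest p. The groups, lists and the division into sets were chosen with earlier results of these data known. Cell type markers and further members of the lists (such as Gzmb and Prf1) were added, as were 2 genes said to be named after their values were seen. One called gene is not reported here, though counts over lists hold it. Alternatives were DESeq2 1.42.0 and its size factors, library size only, other filters, fits of 2 groups, the set as a term or each set alone, a replicate block, leaving out 5 rRNA genes, and leaving out each tumor. The fit of 2 groups with the set as a term was chosen after seeing the data. The procedure was tested on simulated data. Depth limits low genes: a group total of 0 is read against a floor of 3 counts, and intervals cover counting error only.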

Additional observations from a re-analysis of the deposited data

Results flagged for a closer look

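In the 9 aPD1 + aGM-CSF tumors, 134 named genes were examined for a tumor far from the others, and 7 gave one, about as many as chance gives at 1 in 20 groups. Replicate 5 stood low for Prf1 (3.14 CPM), Krt14 (0.0 CPM), Cdh1 (1.73 CPM) and Ephb3 (0.493 CPM). Replicate 8 stood low for Klrd1 (1.70 CPM) and Cd3d (1.5 CPM), and replicate 4 high for Cd3e (9.59 CPM). The 11 tumors of the other group were too many for this check.

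The effect of aIL2RB on top of aGM-CSF differed from its effect without aGM-CSF for 28 named genes, by edgeR's test of the difference. As log2 differences, lymphocyte genes gave 4.38 for Gzmg, 3.49 for Gzmf, 3.60 for Gzmd, 2.55 for Prf1, 2.21 for Cd8a, 2.07 for Cd3d, 1.06 for Tnfrsf9, 1.03 for Gimap1 and 1.06 for Il2rg. Myeloid and leukocyte genes gave 1.12 for Ptprc, 1.09 for Tnf, 0.80 for Csf2rb, 0.82 for Adgre1, 0.47 for Csf1r, 1.03 for Folr2, 1.68 for Siglech and 1.96 for Slfn4. Antiviral genes gave 0.75 for Ifit1, 0.95 for Rsad2, 1.43 for Ifit3 and 1.5 for Ifit3b. Differences below 0 were those of Egln3 (-0.76), Pdk1 (-0.41), Vegfa (-0.47), Ptgfrn (-0.40), Dcn (-0.57), Fn1 (-0.42) and Epha3 (-1.08).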

How the results depend on the processing

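The direction of all 91 named genes that passed was kept under every alternative in which they could be tested. All 91 passed with the set as a term and without the rRNA genes, 90 with the replicate block, 88 with DESeq2's size factors, 73 with library size only, 61 with a total of at least 5 counts, 86 of 87 with DESeq2, 73 of 86 with the 2 groups alone, 63 in the second set, 22 in the first, and 49 in every fit without 1 tumor. The total of 360 genes became 578 with DESeq2, 564 with the 2 groups alone, 1180 with these and the set as a term, 757 with the set as a term, 80 in the first and 1236 in the second set, 226 with a total of at least 5 counts, and 177 to 728 without single tumors. The total of 139 for the sets became 1 to 305. Replicate numbers do not pair the tumors: deviations of tumors of like number correlated at -0.0435 to 0.179, over 0.1 in 1 of 9 pairs, and 1 of 9 correlated best with its own number. With the numbers as a block, 914 genes passed, and 834 in place of 1412 for the difference of the 2 effects.

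Reversals were confined to genes that had not passed. In the first set these were Krt5 (1.10), Cd3d (0.068), Il2ra (0.062), Csf2rb (0.082), Csf2ra (0.16), Ptprc (0.13), Adgre1 (0.063), Csf1r (0.0044), Alas2 (-0.45) and Hbb-bt (-1.03). In the second set they were mt-Rnr1 (0.59), CT010467.1 (0.41) and Cd4 (-0.73). Cd4 gave -0.089 and Hbb-bt -0.47 with the block, and Cd4 -0.12 with the set as a term and -0.13 in the 2 groups alone with it. Without single tumors Krt5 ranged from -1.64 to 0.064, mt-Rnr1 from -0.25 to 0.046, CT010467.1 from -0.19 to 0.036, Cd4 from -0.23 to 0.15 and Hbb-bt from -0.13 to 1.57. Medians of 2 lists moved beyond the spread with the set as a term, NK cell receptors to -1.32 and red cells to 0.65. The cause was not tested for any of these.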
